A study of Mus musculus with 11 samples.

Results

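The 7 libraries of bone marrow mesenchymal stromal cells with an annexin knockout were set together against the 4 wild type libraries, and the genes that moved the same way in both knockouts are described here. The comparison takes in all 11 libraries of the series, chosen by genotype alone: 3 of an ANXA2 knockout, 4 of an ANXA5 knockout and 4 of wild type C57/BL6 mice, each wild type library used once. The cells were primary, came from bone marrow and received no treatment. The part of each gene that was deleted, the number and sex of the animals and any sorting of the cultures are not in the labels. No p-value here covers more than the spread among these libraries, some of which may be technical. The ANXA2 knockout libraries are called 1, 3 and 4 after their columns, whose numbers are not those of the sample titles.

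Annexins are soluble proteins that bind negatively charged phospholipids in membranes when calcium is present. Annexin A2 binds S100a10 and works in exocytosis, membrane repair and plasminogen activation at the cell surface, and annexin A5 binds exposed phosphatidylserine and forms a lattice on the membrane. Mesenchymal stromal cells adhere to plastic, give rise to the bone, cartilage and fat lineages, and supply niche factors to blood cells.

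The promoters of 5 genes of the results are printed, and whether a motif in them bears on the changes was not tested. *Rab10os* and *Csrnp2* rose in both knockouts, *Per1* had the smallest p of the clock genes, and *Sdf2l1* and *Creld2* are the endoplasmic reticulum stress genes whose groups did not overlap. Each is the RefSeq window of 300 bases on GRCm38.p6, from 250 bases before to 50 bases after the gene's start, read 5′ to 3′ on the gene's strand. Capitals mark matches to the E-box CACGTG, which the clock factors bind and which reads the same on both strands, or to the endoplasmic reticulum stress element, CCAAT and CCACG with 9 bases of any kind between them, searched on both strands. The letters of the motifs cannot overlap in the windows shown, since no window held both.
Rab10os, chr12:3235541-3235840, plus strand: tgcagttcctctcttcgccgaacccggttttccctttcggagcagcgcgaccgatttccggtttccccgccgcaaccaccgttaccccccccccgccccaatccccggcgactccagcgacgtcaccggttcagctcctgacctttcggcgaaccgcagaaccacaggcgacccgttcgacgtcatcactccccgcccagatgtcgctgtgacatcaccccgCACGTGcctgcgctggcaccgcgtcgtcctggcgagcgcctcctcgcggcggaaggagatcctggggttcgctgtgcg
Csrnp2, chr15:100495190-100495489, minus strand: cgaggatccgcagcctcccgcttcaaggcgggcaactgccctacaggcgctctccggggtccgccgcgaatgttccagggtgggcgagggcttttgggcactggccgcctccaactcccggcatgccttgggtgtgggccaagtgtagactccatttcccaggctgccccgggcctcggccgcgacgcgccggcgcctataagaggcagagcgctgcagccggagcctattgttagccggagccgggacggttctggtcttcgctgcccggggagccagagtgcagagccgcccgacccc
Per1, chr11:69098699-69098998, plus strand: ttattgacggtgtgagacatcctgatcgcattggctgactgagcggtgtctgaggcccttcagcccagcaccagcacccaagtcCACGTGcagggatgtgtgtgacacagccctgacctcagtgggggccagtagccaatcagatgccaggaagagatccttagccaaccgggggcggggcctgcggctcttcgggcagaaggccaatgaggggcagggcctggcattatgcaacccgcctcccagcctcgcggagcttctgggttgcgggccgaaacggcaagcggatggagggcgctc
Sdf2l1, chr16:17132334-17132633, minus strand: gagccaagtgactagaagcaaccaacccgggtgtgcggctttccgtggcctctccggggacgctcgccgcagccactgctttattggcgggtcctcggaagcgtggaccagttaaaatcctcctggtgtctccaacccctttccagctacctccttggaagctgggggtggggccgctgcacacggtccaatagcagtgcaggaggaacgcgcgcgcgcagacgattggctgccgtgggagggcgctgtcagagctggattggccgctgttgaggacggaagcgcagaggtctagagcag
Creld2, chr15:88819396-88819695, plus strand: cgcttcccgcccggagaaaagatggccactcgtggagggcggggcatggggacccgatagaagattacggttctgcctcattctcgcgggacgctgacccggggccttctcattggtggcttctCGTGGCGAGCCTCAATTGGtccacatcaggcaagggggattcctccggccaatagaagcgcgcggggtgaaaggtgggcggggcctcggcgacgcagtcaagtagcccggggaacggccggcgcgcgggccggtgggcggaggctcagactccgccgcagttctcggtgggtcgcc
The *Rab10os* window held an E-box at its bases 223 to 228, 28 bases before the RefSeq start, and the *Per1* window held one at bases 85 to 90, 166 bases before the start. GENCODE starts *Rab10os* at 3235504, before this window begins, so by that annotation its E-box lies within the gene. A second *Per1* window of RefSeq held none. The *Creld2* window held the stress element on the opposite strand at bases 125 to 143, 126 bases before the start. *Csrnp2*, *Sdf2l1* and *Npas2* had neither motif in their windows. Over all 32851 promoter windows of that length, 7.15% held the E-box and 0.119% the stress element, so the matches are descriptions and the E-box is common. *Ighv8-8* and *Gm21104*, the other genes that rose in both knockouts, have no window in the table used.

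The targets were read first, as the check of the labels. *Anxa2* stood at 33551, 32582, 30189 and 32277 normalised reads in wild type libraries 1 to 4 and at 11253, 8679 and 7726 in ANXA2 knockout libraries 1, 3 and 4. In the ANXA5 knockout it stood at 31866, 34035, 30462 and 32579, overlapping the wild type. *Anxa5* stood at 27165, 25198, 22909 and 25071 in the wild type, at 30125, 26673 and 21845 in the ANXA2 knockout and at 2339, 2257, 2383 and 2284 in the ANXA5 knockout. Each annexin was thus low only where it was targeted: *Anxa2* at 28.7% of the wild type and *Anxa5* at 9.23%, each with a two-sided exact permutation p of 0.0286. In the other knockout *Anxa2* was at 100.3% (exact permutation p = 0.914) and *Anxa5* at 104.5% (exact permutation p = 0.714). None of the other 7 annexins moved the same way in both knockouts, and their averaged log2 fold changes lay between -0.19 for *Anxa3* and 0.58 for *Anxa11*.

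The libraries held 23.3 to 35.6 M reads in the 18712 genes that both deposited tables share, and 16791 genes were tested. Log2 values of library pairs correlated across genes at 0.973 to 0.987 within a genotype, at 0.968 to 0.987 between a knockout and the wild type, and at 0.970 to 0.985 between the knockouts, and genes are not independent replicates. The root mean square log2 difference of a pair had a median of 0.514 within a genotype and 0.587 between knockout and wild type. On the 1000 most variable genes, the first component (24.7% of the variance) set wild type library 1 and ANXA2 knockout library 1 apart from the other 9. *Xist*, the noncoding RNA of the inactive X chromosome, stood at 1.03 to 2.04 in wild type libraries 3 and 4 and ANXA5 knockout library 2, and at 219 to 2152 in the other 8. The libraries with little *Xist* are thus unevenly spread over the genotypes, with none in the ANXA2 knockout, so this split is partly confounded with the knockout contrast.

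Few genes changed over both knockouts. In a limma fit with 1 mean per genotype, 14 genes (0.0834% of those tested) passed an adjusted p of 0.05 for the average of both knockouts minus the wild type, 7 higher and 7 lower (0.0417% each). Of these 14, 4 rose in both genotypes, each with the same sign and an unadjusted p under 0.05 in each, which is 0.0238% of the genes tested, and 0 fell in both (0% of those tested). They were *Rab10os*, *Csrnp2*, *Ighv8-8* and *Gm21104*, and all 4 had 7 knockout libraries above all 4 wild type libraries. The other 10 had an unadjusted p under 0.05 in 1 genotype only: 8 in the ANXA2 knockout (*Anxa2*, *Rpl29*, *Plac9a*, *Abhd14b*, *Tmem254a*, *Fam219b*, *Slc35g2* and *Glb1*) and 2 in the ANXA5 knockout (*Anxa5* and *Igkv8-30*), named here after their values were seen. At an unadjusted p under 0.05 the averaged contrast held 1636 genes (9.74%). At that level in both genotypes separately 141 genes were higher (0.84%) and 138 lower (0.822%) in the same fit, 279 in all (1.66%). Each knockout alone against the wild type gave 41 genes (0.244%) for ANXA2 and 5 (0.0298%) for ANXA5 at limma's adjusted threshold. edgeR called 4 genes higher and 0 lower in both genotypes, and DESeq2 called 36 and 24, 60 in all (0.396% of the genes to which it gave an adjusted p). Without wild type libraries 3 and 4 and ANXA5 knockout library 2, the libraries with little *Xist*, limma called 419 genes (2.52%), 395 higher and 24 lower, a choice made after the data were seen. Only wild type libraries 1 and 2 were then left, and library 1 was set apart on the first component. When all 7 knockout libraries were treated as 1 group, 0 genes passed limma's adjusted threshold, and 1376 had an unadjusted p under 0.05.

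*Rab10os* is a long noncoding RNA transcribed from the strand opposite to *Rab10*, the gene of a small GTPase of membrane transport. The wild type libraries held 373, 355, 284 and 329 normalised reads, against 687, 715 and 715 in the ANXA2 knockout and 525, 524, 582 and 641 in the ANXA5 knockout. Every knockout library was above every wild type library, and the ANXA2 knockout libraries were above those of the ANXA5 knockout. The average of both knockouts was higher by 0.92 on the log2 scale with an SE of 0.096 (95% interval 0.71 to 1.13; limma adjusted p = 0.0017), from 1.08 in the ANXA2 and 0.76 in the ANXA5 knockout. The difference between the knockouts was 0.32 (95% interval 0.06 to 0.57, limma adjusted p = 0.291). The genes overlap on chromosome 12 (GRCm38, GENCODE): *Rab10os* runs from 3235504 to 3250377 on the plus strand and *Rab10* from 3247428 to 3309969 on the minus strand. Whether the counting used strand is not given in the sources used here, so reads in the overlap could belong to either gene. *Rab10* itself stood at 7437, 6765, 6963 and 5987 in the wild type, at 8954, 6896 and 6019 in the ANXA2 and at 6079.9, 6474, 5637 and 6731 in the ANXA5 knockout, with an averaged log2 fold change of -0.02 (limma adjusted p = 0.963). The authors' deposited tables give *Rab10os* an adjusted p of 7.94e-11 for the ANXA2 and 5.91e-06 for the ANXA5 knockout.

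*Csrnp2* encodes a nuclear protein of the cysteine- and serine-rich family, whose members activate transcription. The gene lies on chromosome 15 from 100479570 to 100495488 on the minus strand (GRCm38, GENCODE). Wild type libraries 1 to 4 held 404, 376, 539.65 and 489 normalised reads of it, the ANXA2 knockout libraries 1026, 854 and 893 and the ANXA5 knockout libraries 798, 783, 607 and 633. All 7 knockout libraries were above the wild type, whose highest was library 3. Its average over both knockouts was higher by 0.84 on the log2 scale with an SE of 0.122 (95% interval 0.58 to 1.11; limma adjusted p = 0.0212), with 1.04 in the ANXA2 and 0.64 in the ANXA5 knockout. The call was lost without wild type library 1, 2 or 4, ANXA2 knockout library 3, or ANXA5 knockout library 1 or 2 (limma adjusted p of 0.057 to 0.125).

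*Ighv8-8* is a variable segment of the immunoglobulin heavy chain, which is made by cells of the B lineage, and lies on chromosome 12 from 115294062 to 115294504 on the minus strand (GRCm38, GENCODE). The wild type libraries held 18.3, 20.5, 17.6 and 17.6 normalised reads, the ANXA2 knockout libraries 59.3, 36.4 and 58.4 and the ANXA5 knockout libraries 142, 103, 79.7 and 124. The 3 groups did not overlap, and the wild type libraries lay close together. The average of both knockouts was higher by 1.95 on the log2 scale with an SE of 0.202 (95% interval 1.51 to 2.39; limma adjusted p = 0.0017), with 1.40 and 2.51 in the ANXA2 and ANXA5 knockouts. Some variable segments of a family are near-identical in sequence, so reads of one segment may in part be those of another. In RNA from a mixed culture, more cells of a type and more RNA per cell cannot be told apart.

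The tested variable segments, *Ighv8-8* among them, were then read together, a set chosen after the values were seen. A segment was tested if it reached 10 normalised reads in any 3 libraries, and 7 of the 11 libraries are knockouts. Segments high only in knockouts thus had more ways to enter than those high only in the wild type. This can raise the share above 0, the median and the sums, and its size was not tested. Of 110 tested segments 71 had an averaged log2 fold change above 0, with a median of 0.451, against 52.9% and a median of 0.0136 over all genes tested. The median was 0.0833 in the ANXA2 and 0.674 in the ANXA5 knockout. Summed over the segments, the wild type libraries held 3658, 4301, 2913 and 4439 normalised reads, the ANXA2 knockout 4635, 5426 and 7968, and the ANXA5 knockout 5220, 10800, 6127 and 6165, with every knockout library above the wild type. *Igkc*, the constant region of the kappa light chain, was also higher in all 7 knockout libraries: 5237, 6467, 3951 and 5938 in the wild type, 7148, 7999 and 11285 in the ANXA2 and 7958, 14295, 8086 and 8202 in the ANXA5 knockout. Its averaged log2 fold change was 0.76 (limma adjusted p = 0.346), which missed the threshold. *Jchain*, which joins secreted antibodies, was at 0.82 (limma adjusted p = 0.453) with overlapping groups. Over the whole list of B cell and plasma cell markers 6 of 11 were above 0, with a median of 0.02, and its summed level was 23970 to 32210 in the wild type, 26940 to 37900 in the ANXA2 and 27890 to 37750 in the ANXA5 knockout. The part of B lineage cells in the *Ighv8-8* result was not tested.

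*Gm21104* is a predicted gene with no entry in the annotation used for positions. Its normalised reads came to 133, 101, 118 and 83.8 in the wild type, 294, 294 and 338 in the ANXA2 knockout and 145, 173, 156 and 136 in the ANXA5 knockout. The ANXA5 knockout libraries were just above the highest wild type library and the ANXA2 knockout libraries well above both. The average of both knockouts was higher by 1.002 on the log2 scale with an SE of 0.139 (95% interval 0.70 to 1.30; limma adjusted p = 0.017). It was 1.51 in the ANXA2 and 0.49 in the ANXA5 knockout, and the difference of 1.02 between them (95% interval 0.65 to 1.39) passed the test (limma adjusted p = 0.0322). *Gm21104* was the only one of the 4 genes whose size differed between the knockouts by that test. Its call was lost without wild type library 2 or 4, ANXA2 knockout library 3 or ANXA5 knockout library 2 (limma adjusted p of 0.05 to 0.104).

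**Figure D1:**
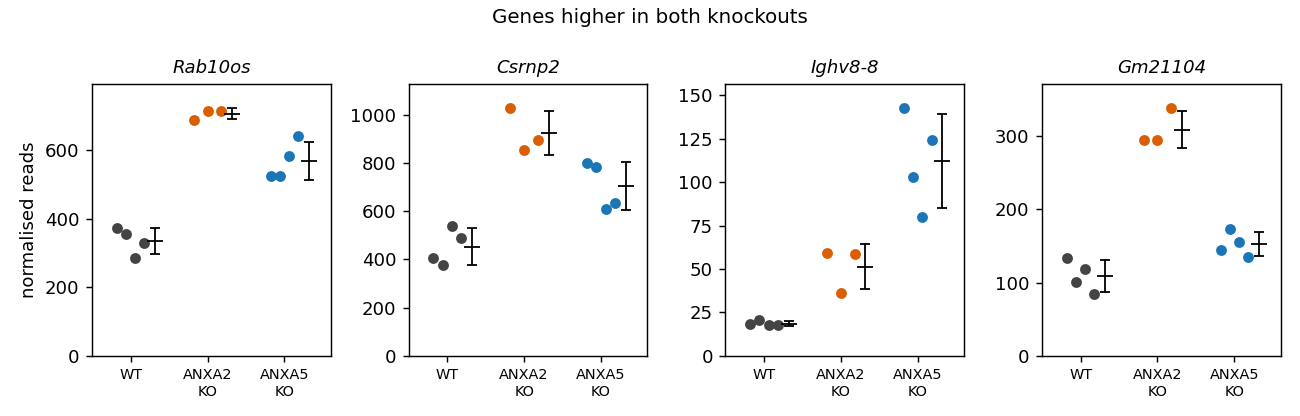
Normalised reads (vertical axis, from 0) of the 4 genes that rose in both knockouts, with 1 point per library in wild type (n = 4), ANXA2 knockout (n = 3) and ANXA5 knockout (n = 4) and the mean with its SD as a bar beside them. In each panel all 7 knockout points lie above the 4 wild type points, with *Ighv8-8* highest in the ANXA5 and *Gm21104* in the ANXA2 knockout.

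Because fewer than 5 genes moved in each direction, the genes nearest to it were read as well: the 8 in each direction with the smallest larger p of the 2 genotypes and a mean of at least 50. Their values are descriptions, and none passed the adjusted threshold of limma apart from *Rab10os*, *Csrnp2* and *Ighv8-8*, which head the upward side. After these came *Per1*, a repressor of the circadian clock, *Lrg1*, a secreted leucine-rich glycoprotein, *Mpeg1*, a pore-forming protein of macrophages, *Sdf2l1*, a chaperone partner in the endoplasmic reticulum, and *Rhobtb1*, an atypical GTPase. *Mpeg1* stood at 294, 378, 317 and 419.96 in the wild type, 619.92, 983 and 1380 in the ANXA2 and 555, 613, 1172 and 631 in the ANXA5 knockout, without overlap (averaged log2 1.23, limma adjusted p = 0.154). *Lrg1* had averaged log2 0.69 (limma adjusted p = 0.154), and wild type library 4 at 3816 lay just above the lowest knockout library at 3773. *Rhobtb1* stood at 184, 200.07, 194 and 198, 251, 265 and 278 and 253, 252, 309.58 and 246 in wild type, ANXA2 and ANXA5 knockout, again without overlap (averaged log2 0.45, limma adjusted p = 0.251).

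On the downward side stood 5 genes with names and 3 predicted genes. *P2ry1*, a receptor for extracellular ADP that raises calcium in the cell, had the smallest p: 409.5, 389, 439 and 401 in the wild type, 247, 271 and 283 in the ANXA2 and 304, 339, 298 and 274 in the ANXA5 knockout. All 7 knockout libraries lay below the wild type, with an averaged log2 fold change of -0.53 (95% interval -0.72 to -0.33, limma adjusted p = 0.0856). *Snai2*, a transcription factor of mesenchymal cells, stood at 861, 985, 623 and 671 in the wild type, 548, 511 and 414 in the ANXA2 and 512, 422, 614 and 416 in the ANXA5 knockout, also without overlap (averaged log2 -0.67, limma adjusted p = 0.271). *Polg2*, the accessory subunit of the mitochondrial DNA polymerase, had averaged log2 -0.58 (limma adjusted p = 0.275) and *Trim23*, a ubiquitin ligase, -0.38 (limma adjusted p = 0.27), both without overlap. For *Hmgn3*, a nucleosome-binding protein, the value was -0.57 (limma adjusted p = 0.339) with overlapping groups, and ANXA2 knockout library 1 at 875 above wild type library 4 at 845. The ANXA2 and ANXA5 knockouts share their wild type libraries, so the values of both genotypes are not independent. Over all genes tested, 67 (0.399%) had 7 knockout libraries above the wild type and 91 (0.542%) had them below, 158 in all (0.941%). DESeq2 called *Per1*, *Lrg1*, *Mpeg1*, *Sdf2l1*, *Rhobtb1*, *P2ry1*, *Snai2*, *Polg2*, *Trim23* and *Hmgn3* in the averaged contrast, with adjusted p from 2.62e-05 for *P2ry1* to 0.0387 for *Hmgn3*.

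**Figure D2:**
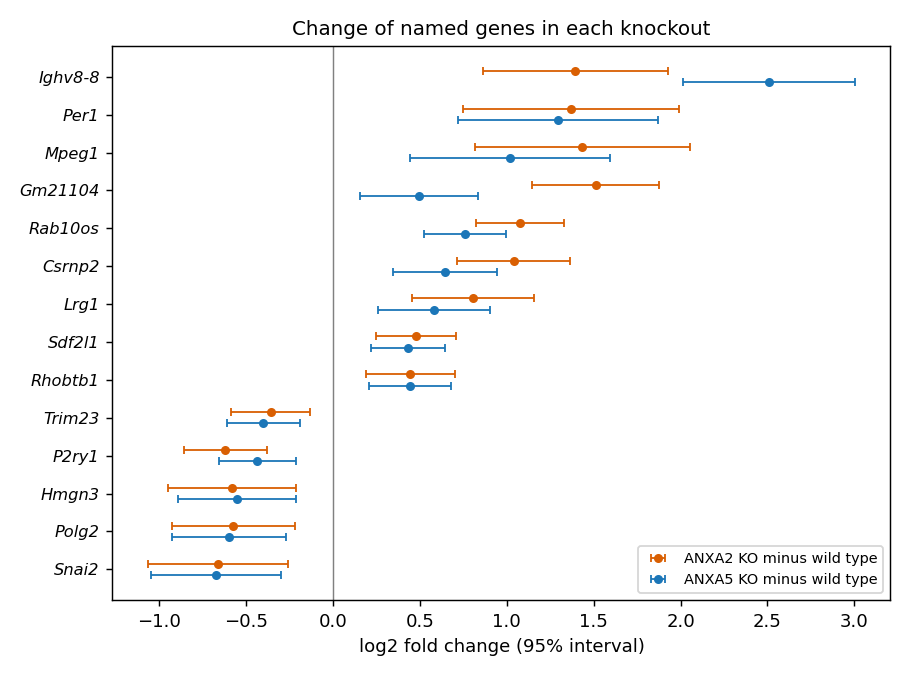
Log2 fold change against wild type (horizontal axis) with its 95% interval in the ANXA2 (orange) and ANXA5 (blue) knockout for the 4 genes that rose in both and the named genes nearest to the rule. Both genotypes lie on the same side of 0 in every row because the genes were chosen for that. The 2 intervals of *Gm21104* and of *Ighv8-8* do not overlap, while those of *Per1* do.

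The gene lists were hand-made from known functions, 44 in all, and 0 of their 735 tested members moved the same way in both knockouts by the adjusted rule of limma or edgeR, against 0.0238% higher and 0% lower over all genes tested by limma. DESeq2 called 11 members (1.5%, against 0.396% of all genes): *Per1*, *Per2*, *Wee1*, *Tsc22d3*, *Angptl4*, *Mpeg1*, *Sdf2l1*, *Notch4*, *Oas3* and *Igkc* higher and *mt-Co1* lower. In the 8 libraries with *Xist* of at least 100, limma called 37 of 732 members (5.05%, against 2.52% of all genes), among them 4 endothelial, 3 fat cell and 3 collagen genes. Of the wild type these 8 keep only libraries 1 and 2. The lists are described by how many members lay above 0, against 52.9% of all genes tested, and by their median, against 0.0136. Lists and members were chosen with earlier results of these data known. Their shares and medians are thus descriptions and not independent of the data.

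Of the genes that glucocorticoids induce, all 15 tested members had averaged log2 fold changes above 0, with a median of 0.57 (0.63 in the ANXA2 and 0.49 in the ANXA5 knockout), and 13 of them were above 0 in each genotype. None passed the adjusted threshold of limma, and 3 were higher at an unadjusted p under 0.05 in both genotypes, against 0.84% of all genes: *Per1*, *Angptl4* and *Tsc22d3*. *Tsc22d3*, which encodes the glucocorticoid-induced leucine zipper, stood at 4779, 3656, 6321 and 4426 in the wild type, 11626, 14504 and 5492 in the ANXA2 and 30763, 13781, 7296 and 23766 in the ANXA5 knockout. Only ANXA2 knockout library 4 reached into the wild type range, and the averaged log2 fold change was 1.43 (95% interval 0.64 to 2.22, limma adjusted p = 0.346). *Angptl4*, a secreted inhibitor of lipoprotein lipase, stood at 1615, 1174, 1707 and 2257, 3544, 4186 and 1834 and 4271, 3871, 2898 and 4159.5 in wild type, ANXA2 and ANXA5 knockout (averaged log2 1.03, limma adjusted p = 0.248). ANXA2 knockout library 4 was again low for it. The list level of a library, the mean of its members' centred log2 values, was -0.73 to -0.10 in the wild type, -0.12 to 0.52 in the ANXA2 knockout and -0.37 to 0.74 in the ANXA5 knockout, with ANXA2 knockout library 4 and ANXA5 knockout library 3 in the wild type range. Leaving out any 1 library kept the median between 0.52 and 0.73.

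The circadian clock was the list with the most members at an unadjusted p under 0.05 in both genotypes, 5 of 19, against 1.66% of all genes. Its members, like those of the other lists, were chosen with earlier results of these data known, so this share is a description. In the clock, the factors *Arntl* and *Npas2* or *Clock* switch on E-box genes, among them the *Per* genes, whose proteins then hold those factors back. *Per1*, *Per2* and *Wee1* were higher in both knockouts at that level and *Arntl* and *Npas2* lower, of which *Per2* and *Arntl* are named after their values were seen. *Per1* stood at 364, 359.94, 798 and 708 in wild type libraries 1 to 4, at 1093, 1749 and 1285 in the ANXA2 knockout and at 1387, 1266, 994 and 1549.9 in the ANXA5 knockout. All 7 knockout libraries were above the wild type, in which libraries 3 and 4 were higher than 1 and 2. The average of both knockouts was higher by 1.33 on the log2 scale with an SE of 0.235 (95% interval 0.82 to 1.84; limma adjusted p = 0.0975), 1.37 in the ANXA2 and 1.30 in the ANXA5 knockout. It passed the threshold with *Xist* as a covariate (limma adjusted p = 0.00723) and in the 8 libraries with *Xist* of at least 100 (limma adjusted p = 0.0146). Those 8 leave out wild type libraries 3 and 4, the higher ones for *Per1*, and keep only wild type libraries 1 and 2.

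*Wee1*, a kinase that holds back entry into mitosis, stood at 962, 879, 936 and 905 in the wild type, 2045, 1927 and 1136 in the ANXA2 and 2146, 1494, 1282 and 2335 in the ANXA5 knockout, without overlap (averaged log2 0.89, limma adjusted p = 0.217). *Per2* had an averaged log2 fold change of 0.87 (limma adjusted p = 0.353) and was at 469 in ANXA5 knockout library 3, inside the wild type range of 321 to 576. *Npas2* stood at 2021, 2311, 2189 and 1901 in the wild type, 1280.5, 1889 and 1296 in the ANXA2 and 1206, 1203, 1854 and 1236 in the ANXA5 knockout, with all knockout libraries below the wild type (averaged log2 -0.58, limma adjusted p = 0.344). *Arntl* was at -0.61 (limma adjusted p = 0.346), and ANXA5 knockout library 3, at 1758, lay above wild type library 4, at 1562. ANXA5 knockout library 3 was nearest to the wild type for *Per1*, *Npas2* and *Arntl* among the 4 ANXA5 knockout libraries. The median of the list was 0.28, with 0.62 in the ANXA2 and 0.01 in the ANXA5 knockout, and 13 of 19 members were above 0. Without ANXA2 knockout library 1 the median was 0.135. The time of day at which cells were taken is not given in the labels.

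**Figure D3:**
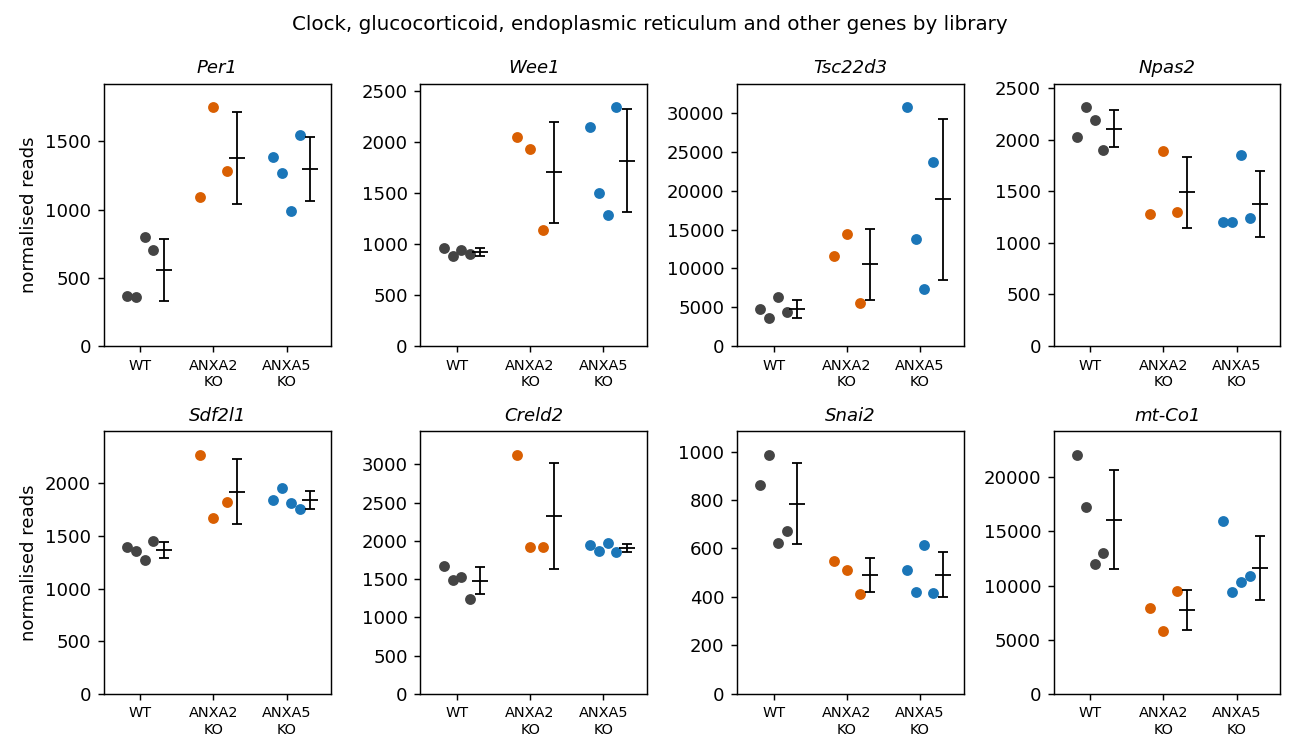
Normalised reads (vertical axis, from 0) of 8 genes in each library of wild type (n = 4), ANXA2 knockout (n = 3) and ANXA5 knockout (n = 4), with the mean and its SD beside the points. *Per1*, *Wee1*, *Sdf2l1* and *Creld2* are higher and *Npas2* and *Snai2* lower in all 7 knockout libraries than in the wild type, while *Tsc22d3* and *mt-Co1* overlap.

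Genes of the unfolded protein response, which raises the folding capacity of the endoplasmic reticulum, were above 0 in 18 of 23 cases, with a median of 0.16 (0.23 in the ANXA2 and 0.12 in the ANXA5 knockout). *Sdf2l1* stood at 1390.5, 1358, 1267 and 1451 in the wild type, 2267, 1672 and 1823 in the ANXA2 and 1841, 1958, 1816 and 1760.1 in the ANXA5 knockout, without overlap (averaged log2 0.46, 95% interval 0.27 to 0.65, limma adjusted p = 0.154). *Creld2*, a disulfide isomerase induced by stress in this organelle, stood at 1671, 1481, 1527 and 1238, 3118, 1923 and 1919.7 and 1938, 1867, 1972 and 1855, again with all knockout libraries above the wild type (averaged log2 0.50, limma adjusted p = 0.353). *Manf*, a secreted protein of the same response, was at 0.40 (limma adjusted p = 0.487) with overlapping groups. *Sdf2l1* and *Creld2* were the members with an unadjusted p under 0.05 in both genotypes. Without ANXA2 knockout library 1 the median of the list was 0.096. *Hspa5*, the main chaperone of the organelle, was at 0.27 (limma adjusted p = 0.556).

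Transcripts encoded by the mitochondrial genome were lower in all 10 tested cases, with averaged log2 fold changes between -0.75 for *mt-Co1* and -0.29 for *mt-Nd6* and a median of -0.45. The median was -0.71 in the ANXA2 and -0.22 in the ANXA5 knockout, and none of the 10 passed the adjusted threshold of limma. *mt-Co1*, a catalytic subunit of cytochrome c oxidase, stood at 22049, 17253, 11982 and 13050 in the wild type, 7908, 5796 and 9536 in the ANXA2 and 16011, 9370.4, 10310 and 10885 in the ANXA5 knockout (limma adjusted p = 0.353). It passed in DESeq2 (DESeq2 adjusted p = 0.0467) and in the 8 libraries with *Xist* of at least 100 (limma adjusted p = 0.049). The ANXA2 knockout libraries were below the wild type, and ANXA5 knockout library 1 lay within it. *mt-Atp6*, a subunit of ATP synthase, was the member without overlap: 81, 82.2, 60.4 and 69.3 in the wild type, 40.7, 35.5 and 56.2 in the ANXA2 and 58.3, 53, 51 and 48.9 in the ANXA5 knockout (averaged log2 -0.59, limma adjusted p = 0.373). *mt-Nd4*, a subunit of complex I, was at -0.43 (limma adjusted p = 0.394). These genes are read from 1 small genome, so they are not independent. Their list level was 0.05 to 0.56 in the wild type and -0.75 to -0.03 in the ANXA2 knockout. In the ANXA5 knockout it was -0.10 to 0.21, overlapping the wild type. The nuclear genes of the respiratory chain did not share the direction: 17 of 22 were above 0, with a median of 0.05, which ran from -0.00062 to 0.12 when wild type library 3 or 4 was left out.

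Genes of cholesterol and fatty acid synthesis were above 0 in 7 of 26 cases, with a median of -0.26 (-0.25 in each knockout), and 16 were below 0 in both genotypes. Among those with an unadjusted p under 0.05 in both were *Idi1*, *Scd2* and *Sc5d*, of which *Idi1* is named after its values were seen. *Scd2*, a fatty acid desaturase, stood at 6315, 6828, 7015 and 4978 in the wild type, 4002, 4900 and 4470.5 in the ANXA2 and 3952, 3787, 6066 and 3658 in the ANXA5 knockout (averaged log2 -0.52, limma adjusted p = 0.377). ANXA5 knockout library 3 alone reached the wild type range. *Sc5d*, a sterol desaturase, was at -0.37 (limma adjusted p = 0.411). The 3 members farthest above 0 were at 0.12 (*Acly*), 0.29 (*Acaca*) and 0.35 (*Fasn*), which make fatty acids.

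**Figure D4:**
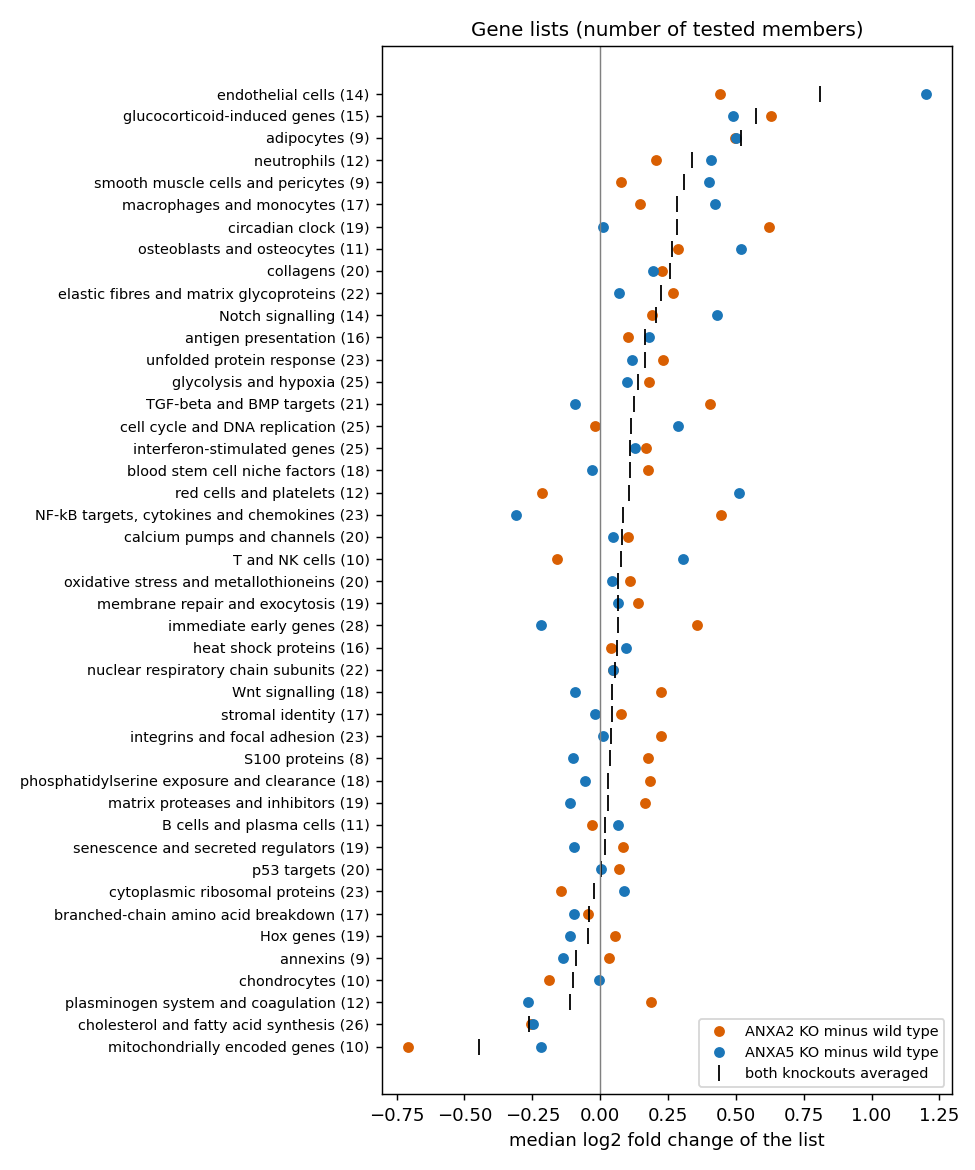
Median log2 fold change against wild type (horizontal axis) of each gene list, with the number of tested members in brackets, in the ANXA2 knockout (orange), the ANXA5 knockout (blue) and for both averaged (black tick). Glucocorticoid-induced genes lie right of 0 and mitochondrially encoded genes left of 0 in both genotypes, while immediate early genes lie at 0.36 and -0.22.

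Markers of other cell types were read next, because the cultures held RNA of blood cells. *Elane*, an enzyme of neutrophil granules, stood at 8280.1, 9916, 10076 and 20319 in the wild type, 8023, 15500 and 24672 in the ANXA2 and 17917, 21376, 21442 and 22024 in the ANXA5 knockout. All 12 neutrophil markers had averaged log2 fold changes above 0, with a median of 0.34, and their summed level was 324900 to 577400 in the wild type, 304900 to 729300 in the ANXA2 and 456700 to 635200 in the ANXA5 knockout. Of the macrophage and monocyte markers 16 of 17 were above 0, with a median of 0.28, and the sum was 96820 to 147100 in the wild type, 100200 to 194500 in the ANXA2 and 136200 to 170100 in the ANXA5 knockout. None of these passed limma's adjusted threshold, and the groups of both sums overlapped. Without ANXA2 knockout library 4 the medians were 0.16 for neutrophils and 0.15 for macrophages and monocytes, and without wild type library 4 that of neutrophils was 0.53. *Csf1r*, the receptor that macrophages need for survival, was at 0.32 (limma adjusted p = 0.497) and *Mmp8*, a neutrophil collagenase, at 0.46 (limma adjusted p = 0.487). *Mpeg1* and *Lrg1* are themselves expressed in such cells, and the part of these cells in their values was not tested. The 17 stromal markers were present in every library, the lowest with a mean of 620.7, and had a median of 0.04, with sums of 749000 to 1101000 in the wild type, 920200 to 1216000 in the ANXA2 and 853100 to 1160000 in the ANXA5 knockout.

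Endothelial markers had the highest median of the 44 lists, 0.81, with 0.44 in the ANXA2 and 1.20 in the ANXA5 knockout, and 13 of 14 were above 0 in both genotypes. *Tie1*, a receptor of vessel cells, stood at 70.7, 200.07, 301 and 341 in the wild type, 183, 385 and 398 in the ANXA2 and 548, 547, 628 and 1000.4 in the ANXA5 knockout (averaged log2 1.19, limma adjusted p = 0.441). The ANXA5 knockout libraries were all above the wild type, and the ANXA2 knockout libraries were not. *Robo4* was at 1.34 (limma adjusted p = 0.411), *Esam* at 0.87 (limma adjusted p = 0.463) and *Notch4*, a Notch receptor of endothelium, at 1.58 (limma adjusted p = 0.217). Without wild type library 1, which was low for these genes, the median of the list was 0.40, and in the 8 libraries with *Xist* of at least 100 it was 1.47. Those 8 keep only libraries 1 and 2 of the wild type. The summed level of the markers was 4467 to 7228 in the wild type, 5145 to 7615 in the ANXA2 and 6788 to 11060 in the ANXA5 knockout.

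Fat cell markers were above 0 in 7 of 9 cases, with a median of 0.52 and near-equal medians in both genotypes (0.50 each). Without wild type library 1 the median was 0.34, and in the 8 libraries with *Xist* of at least 100 it was 1.01. *Plin4*, a coat protein of lipid droplets, was at 1.48 (limma adjusted p = 0.411) and *Adipoq*, the hormone adiponectin, at 1.01 (limma adjusted p = 0.439). Single members could differ in size between the genotypes: *Adipoq* was at 0.63 in the ANXA2 and 1.40 in the ANXA5 knockout, while *Plin4* was at 1.48 in each. *Plin4* stood at 16, 29.5, 34 and 85.9 in the wild type, 61.6, 149.62 and 100.23 in the ANXA2 and 238, 55.1, 76 and 90.7 in the ANXA5 knockout, with wild type library 4 within the knockout range. *Pf4*, a platelet chemokine, was at 0.79 (limma adjusted p = 0.436), while the red cell and platelet list as a whole had opposite medians, -0.21 in the ANXA2 and 0.51 in the ANXA5 knockout. Among the 10 cartilage markers *Acan*, the proteoglycan of cartilage, was at 0.90 (limma adjusted p = 0.463) against a list median of -0.10, which took values from -0.21 to 0.22 when single libraries were left out.

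The matrix and niche genes of the stromal cell itself were read as well. Of 20 collagens 17 were above 0, with a median of 0.26 (0.23 in the ANXA2 and 0.20 in the ANXA5 knockout), and *Col15a1*, a collagen of basement membranes, was at 0.48 (limma adjusted p = 0.507). The collagen median was 0.13 without wild type library 1 and 0.52 in the 8 libraries with *Xist* of at least 100. *Itga5*, the fibronectin receptor subunit, stood at 4736, 4614, 7242 and 6935 in the wild type, 12674, 10045 and 7865 in the ANXA2 and 10696, 8595, 6129 and 9714 in the ANXA5 knockout (averaged log2 0.69, limma adjusted p = 0.353). ANXA5 knockout library 3 was the one in the wild type range. *Angpt1*, a niche ligand for the receptor Tek, was at -0.50 (limma adjusted p = 0.398) and *Ebf3*, a transcription factor of niche cells, at -0.40 (limma adjusted p = 0.435), both with an unadjusted p under 0.05 in each genotype. *Oas3* and *Oas2*, sensors of double-stranded RNA, were the interferon-stimulated genes at that level, at 0.84 and 0.56 (limma adjusted p = 0.324 and 0.346), in a list with a median of 0.11, which was 0.041 without wild type library 4 and 0.17 without ANXA2 knockout library 3. Of 25 genes of glycolysis and hypoxia 22 were above 0, with a median of 0.14, led by *Pfkfb3*, a regulator of glycolysis, at 0.41 (limma adjusted p = 0.353).

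Some lists close to the function of annexins gave single members at an unadjusted p under 0.05 in both genotypes, against 0.84% higher and 0.822% lower over all genes. The 18 tested genes of phosphatidylserine exposure and clearance gave 0 such members, with a list median of 0.03. The 12 of the plasminogen system and coagulation also gave 0, with a median of -0.11. *S100a11*, a calcium-binding partner of annexins, was at 0.36 (limma adjusted p = 0.473) in a list of 8 with a median of 0.04. *Pdcd6*, a calcium sensor of membrane repair, was at 0.29 (limma adjusted p = 0.433) in a list of 19 with a median of 0.07. *Orai1*, the pore of store-operated calcium entry, was at 0.31 (limma adjusted p = 0.455). *Trpm7*, a channel with a kinase domain, stood at 2659, 2859.9, 2595 and 2482 in the wild type, 2390.1, 2115 and 2111 in the ANXA2 and 2282, 2234, 2312 and 2469 in the ANXA5 knockout, all knockout libraries being below the wild type (averaged log2 -0.23, limma adjusted p = 0.411). The list of calcium pumps and channels had a median of 0.08. With single libraries left out these medians ran from -0.12 to 0.13 for the S100 proteins, 0.048 to 0.13 for membrane repair and 0.055 to 0.13 for calcium pumps and channels.

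Some lists had opposite medians in the knockouts, so each knockout is given on its own. Immediate early genes had a median of 0.36 in the ANXA2 and -0.22 in the ANXA5 knockout, NF-kB targets with cytokines and chemokines 0.45 and -0.31, and TGF-beta and BMP targets 0.41 and -0.09. *Egr3* was at 1.36 in the ANXA2 and 0.04 in the ANXA5 knockout, *Klf4* at 1.10 and -0.12, and *Nog*, a BMP antagonist, at 1.79 and 0.47. The difference between the knockouts had limma adjusted p of 0.153 for *Egr3*, 0.148 for *Klf4* and 0.173 for *Nog*. It passed for 50 genes (0.298% of those tested), among them *Bckdhb* and *Pccb*, enzymes of branched-chain amino acid breakdown, which were at 1.22 and 1.02 in the ANXA2 and at -0.20 and -0.20 in the ANXA5 knockout (limma adjusted p = 0.0011 and 0.00114 for the difference). The list of these enzymes did not rise as a whole: 5 of its 17 tested members had an averaged log2 fold change above 0. Its medians were -0.04 in the ANXA2 and -0.10 in the ANXA5 knockout. *Vcan*, a large matrix proteoglycan, was at -0.56 in the ANXA2 and 0.04 in the ANXA5 knockout (limma adjusted p = 0.0299 for the difference).

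**Figure D5:**
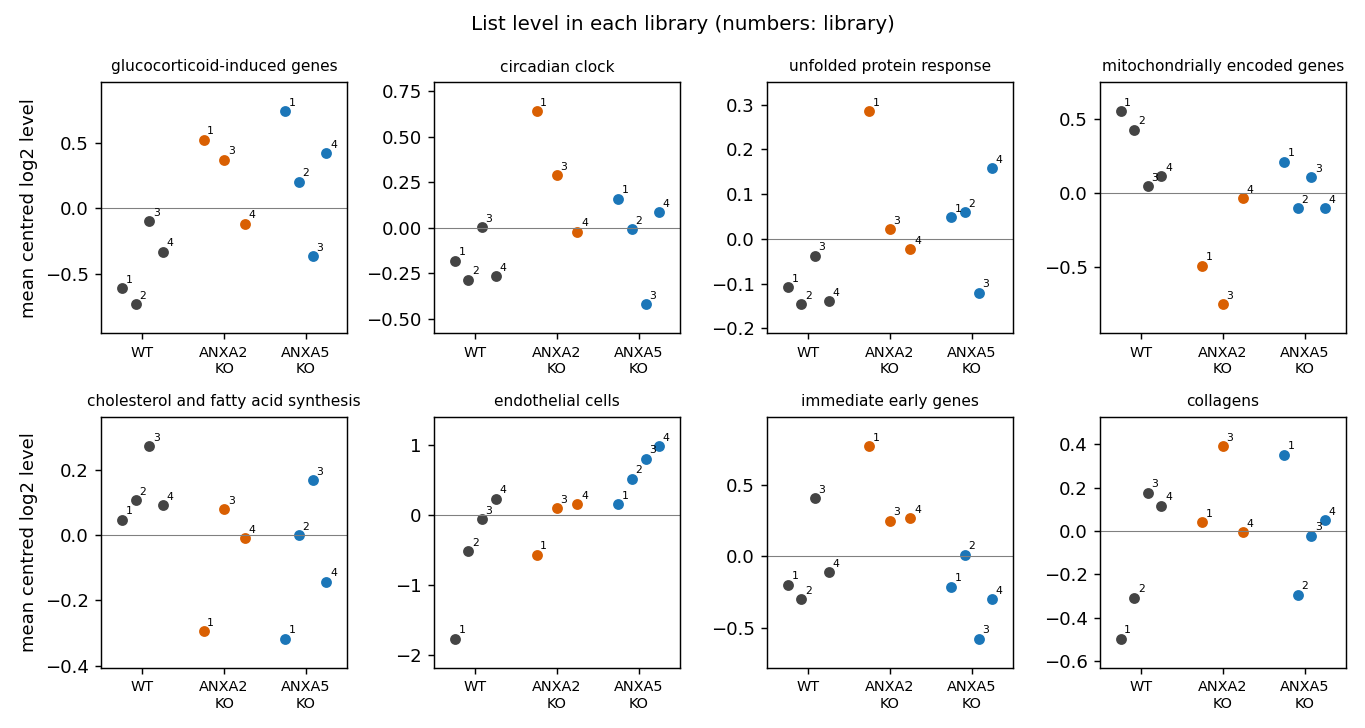
Mean centred log2 level (vertical axis) of the members of 8 gene lists in each library, with the library's number beside its point, in wild type (grey), ANXA2 knockout (orange) and ANXA5 knockout (blue). The mitochondrially encoded genes are lowest in ANXA2 knockout library 3, and ANXA2 knockout library 4 and ANXA5 knockout library 3 lie among the wild type libraries for the glucocorticoid-induced genes.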

How the data were processed

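RNA of the 11 libraries was extracted with a column kit and made into libraries with NEBNext modules, per the labels' protocols. The tools Trim Galore, STAR, HTSeq, DESeq2 and the build GRCm39 are listed in the submitters' processing notes, with versions not given in the sources used here. The signal values the authors deposited are reads per gene divided by a size factor of the library, in 1 table per knockout, each with the same wild type libraries. Multiplied by that factor, 100% of values were whole reads within 0.001, and the wild type reads were equal in both tables. The deposited log2 fold changes and the adjusted p-values are the authors' own, per the file headers, and only the p-values of named genes were used. The deposited score, a test statistic per the file headers, was not used.

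The tables held 19259 and 19801 genes, and the 18712 shared by identifier were rescaled together by median-of-ratios size factors over the 11 libraries. Genes absent from a table could not be called. The joined table held 0 genes with 0 reads in a library, so a gene without reads in any 1 library was already missing and could not be called either. The 16791 genes that reached 10 normalised reads in 3 libraries were tested with limma-trend on log2(value + 1), so fold changes of low genes are understated. The model had 1 mean per genotype, the contrast gave both knockouts equal weight, and two-sided p-values were adjusted by the Benjamini-Hochberg method at 0.05. A gene moved the same way if the averaged contrast passed and each genotype had the same sign and an unadjusted p under 0.05. Count tests on the recovered reads called 4 (edgeR) and 60 (DESeq2) such genes.

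Groups came from the labels, 0 sample columns were left out, and the ANXA2 knockout columns were matched to the group only. Named were the targets, the genes that moved the same way, the 8 per direction nearest to that rule with a mean of at least 50, and up to 3 members of each of 44 lists by smallest p. *Rab10*, *Arntl*, *Per2*, *Idi1*, *Hspa5*, *Anxa3*, *mt-Nd6*, *Acly*, *Acaca*, *Fasn* and the genes that passed in 1 genotype only were named after their values were seen. Some members are not reported here. Members and lists were chosen with earlier results of these data known. Alternatives were TMM scaling, edgeR, DESeq2, pseudocounts of 0.5 and 5, no filter, a minimum of 50, a 2-group model, stricter rules, a replicate block, *Xist* as covariate, and leaving out libraries. The test was checked on simulated data. Promoters came from RefSeq (GRCm38.p6) and positions from GENCODE M21 (GRCm38), which matched 99.74% of tested genes and is not the submitters' build. Versions used were R 4.3.3, edgeR 4.0.16, limma 3.58.1 and DESeq2 1.42.0.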

Additional observations from a re-analysis of the deposited data

Results flagged for a closer look

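The knockouts differed from each other beyond the spread within them for both targets and for some other genes. *Anxa2* differed by -1.82 on the log2 scale (ANXA2 minus ANXA5 knockout, limma adjusted p = 2.73e-05) and *Anxa5* by 3.49 (limma adjusted p = 1.44e-08). *Gm21104* differed by 1.02 (limma adjusted p = 0.0322), *Vcan* by -0.60 (limma adjusted p = 0.0299), *Bckdhb* by 1.41 (limma adjusted p = 0.0011) and *Pccb* by 1.23 (limma adjusted p = 0.00114). Of the genes that passed the averaged contrast in 1 genotype only, *Plac9a* differed by 2.497 and *Tmem254a* by 1.97, and *Rpl29* by -3.34, *Abhd14b* by -2.67, *Fam219b* by -1.32, *Slc35g2* by -2.32, *Glb1* by -0.89 and *Igkv8-30* by -3.93 (limma adjusted p from 2.161e-07 to 0.002465).

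Single libraries lay far from the other 3 of their group in 18 of 156 groups examined over 78 genes, and chance gives about 1 in 20. In ANXA5 knockout library 3 *Mpeg1* (1172 normalised reads, next 630.5), *Rhobtb1* (309.6, next 252.6), *Npas2* (1854, next 1236) and *Scd2* (6066, next 3952) were high, and *Mmp8* (9832, next 16770) was low. ANXA5 knockout library 2 was high for *Igkc* (14300, next 8202), *Jchain* (2834, next 1303) and *Egr3* (342.7, next 231). ANXA5 knockout library 4 was high for *Csf1r* (3896, next 2810), *Esam* (746.9, next 471.8) and *Notch4* (260.7, next 161.9). In ANXA5 knockout library 1 *Vcan* was high (6558, next 5430) and *Elane* low (17920, next 21380). In wild type library 4 *Elane* (20320, next 10080), *Pf4* (578.2, next 293.1) and *Orai1* (1488, next 1249) were high, and wild type library 1 was high for *Pdcd6* (2416, next 2203) and *Plac9a* (4130, next 3316).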

How the results depend on the processing

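TMM scaling, edgeR, both pseudocounts, no filter and a minimum of 50 gave 14 to 16 genes for the averaged change and 4 or 5 for the same direction in both knockouts. DESeq2 gave 95 and 60, and by its test 2 of the 4 genes of the main fit differed between the knockouts. A 2-group model gave 0 and 0 (limma adjusted p of 0.0666 for *Rab10os*, 0.222 for *Ighv8-8*, 0.42 for *Csrnp2* and 0.568 for *Gm21104*). The 8 libraries with *Xist* of at least 100 gave 439 and 419, with *Rab10os*, *Csrnp2* and *Ighv8-8* among the latter. An adjusted p under 0.05 in each genotype left 2 genes, and a log2 fold change of at least 1 in each left 1. The cause of these shifts was not tested. With the replicate number as a block 14 and 6 genes were called, and *Csrnp2* and *Gm21104* were lost (limma adjusted p = 0.0784 and 0.0629). With that block 0 of the 4 genes of the main fit differed between the knockouts. Deviations of same-numbered libraries correlated at -0.239 to 0.298 over 10 pairs. Wild type and ANXA2 knockout libraries 1 (0.285) and 4 (0.298) were over 0.1 and the 2 highest of all 40 pairs, and the other 8 were not over 0.1. All 3 same-numbered pairs of wild type and ANXA2 knockout were above 0, with libraries 3 at 0.0748. Since not every pair was over 0.1, the numbers were not taken to pair the libraries, and not every library correlated best with its own number. That rule covers all 10 pairs and cannot decide on a pairing of wild type and ANXA2 knockout alone. With 1 library left out at a time, 0 to 1 of the 4 genes of the main fit differed between the knockouts. These runs gave 7 to 19 genes for the averaged change and 2 to 7 for both knockouts, and *Rab10os* and *Ighv8-8* were called each time. The lows came without wild type library 2. Genes whose groups do not overlap numbered 195 to 619, against 158 with all libraries. Fewer libraries make overlap less likely, so a higher count is built into leaving one out. The *Anxa2* difference ran from -1.97 to -1.70, with an exact permutation p of 0.0667 or 0.1, the smallest these group sizes allow. *Rab10*, near 0 throughout, ran from -0.095 to 0.045 with single libraries left out, and was the 1 gene of 159 run under the alternatives whose sign changed. With 3 or 4 libraries per group, and reads of one gene that may come from copies or from the opposite strand, changes of modest size could be missed.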

Other observations

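Single genes outside the lists are given here as values. *Ms4a4a*, a membrane protein gene of macrophages chosen after its values were seen, stood at 78.7, 77.7, 62.9 and 48.6 normalised reads in the wild type, 112, 133 and 100.2 in the ANXA2 and 151, 113, 106 and 148 in the ANXA5 knockout. *Fkbp4*, a cochaperone of steroid hormone receptors, was likewise chosen after its values were seen. It stood at 3792, 3688, 3401 and 3734 in the wild type, 4553, 4253 and 4096 in the ANXA2 and 4352, 4530.2, 4395 and 4525 in the ANXA5 knockout, without overlap, at an averaged log2 fold change of 0.26 (limma adjusted p = 0.346). *Igkv8-30*, a kappa light chain variable segment, stood at 16, 20.5, 16.4 and 11.4 in the wild type and at 9.3, 18.2 and 24.2 in the ANXA2 knockout, and at 253, 311, 160.35 and 358 in the ANXA5 knockout alone, so its averaged change came from 1 genotype.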
